A study of Homo sapiens with 36 samples.

Results

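The experiment asked how the transcriptional response of HepG2 cells to docosahexaenoic acid (DHA), a long-chain n-3 polyunsaturated fatty acid, changed between 6 h and 24 h of supplementation. HepG2, derived from a human hepatoma, is an established cell line that serves as a model of hepatocytes. Cells received vehicle (Ctrl), DHA (50 µM), propionate (PRO, 70 µM), protocatechuic acid (PCA, 20 µM), DHA + PRO or DHA + PCA, for 6 h or 24 h, in 3 replicates each, all in serum-free medium. DHA was given bound to bovine serum albumin, Ctrl received the corresponding vehicles, and each sample pooled the RNA of 3 culture wells of this single line. Whether cells given PRO or PCA alone also received the albumin and ethanol of DHA is not stated. A vehicle difference therefore cannot be told apart from DHA in these backgrounds.

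All 36 of the 36 samples entered the comparison. At each time, 9 samples with DHA (DHA, DHA + PRO and DHA + PCA) were set against 9 without it (Ctrl, PRO and PCA), always within the same background, and the pooled DHA effect is the mean of these 3 log2 fold changes. The change with time is the pooled DHA effect at 24 h minus that at 6 h. A value below 0 therefore means that a gene was more repressed, or less induced, by DHA at 24 h than at 6 h. A gene was called when its adjusted p in edgeR's quasi-likelihood test was at most 0.05 and its average log2 CPM exceeded 0, CPM being read counts scaled to the library total.

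Polyunsaturated fatty acids taken up by liver cells are built into membranes and lipid stores and are oxidised. Of the sterol regulatory element-binding proteins (SREBPs), they are known to restrain the nuclear amount of SREBP-1, but not that of SREBP-2. SREBP-2 drives cholesterol synthesis and LDL uptake, and SREBP-1 drives the synthesis and desaturation of fatty acids. Peroxidation of these fatty acids also yields reactive aldehydes. Aldo-keto reductases reduce such aldehydes, and several of them, like the quinone reductase NQO1, are known targets of the antioxidant regulator NRF2.

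Total counts ran from 4659744 to 42326734 with a median of 7034006.5, and the second highest was 10788964. The deep library, DHA + PRO 24 h replicate 2, held 6.22 times the median of the other 24 h libraries, and thinning it left all 20 genes called. One library stood apart. After removal of group and replicate effects, DHA + PRO 6 h replicate 1 had a residual SD of 0.273 on the log2 scale over 6437 genes, against 0.202 for the next library and a median of 0.121. All 12 hepatocyte markers exceeded a median of 1 RPKM (reads scaled to gene length and library size). Of 15 markers of fibroblasts, endothelial and immune cells, 5 exceeded that level (PDGFRB, ACTA2, CD14, CD68 and LYZ) and 5 had a median of 0 (DCN, LUM, KDR, PTPRC and CD3E). In bulk RNA of this kind, a change in the number of responding cells and a change in RNA per cell cannot be told apart. None of the 12 hepatocyte markers and none of the 7 other markers tested was called in edgeR for the change with time, and 1 and 3 had an unadjusted p under 0.05. Summed over the 15 other markers, levels were 548 to 851 RPKM at 6 h and 1090 to 1750 at 24 h. Most of this sum was LYZ, with a median of 918 RPKM against 28.5 for ACTA2, the next highest. The DHA effect on LYZ was -0.09 at 6 h and -0.28 at 24 h. The part of these markers in the results was not tested.

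Of 12046 genes tested, 20 (0.166%) changed their DHA effect between 6 h and 24 h. The change was below 0 for 13 of them (0.108%) and above 0 for 7 (0.0581%). ACLY and ACSS2 of fatty acid synthesis and the desaturases SCD and FADS2 were more deeply repressed at 24 h, and FST, C10orf10 and IGFBP1 were repressed at 24 h and not called at 6 h, whereas AKR1B10, AKR1B15, AKR1C2, NQO1 and SPP1 were more strongly induced. For the sterol enzyme MSMO1 and for CFAP44, repression at 6 h was shallower or gone at 24 h. In edgeR the lowest adjusted p was 4.82e-07, 784 genes had an unadjusted p under 0.05, and the median change over all genes was -0.00117.

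The 20 genes split into 3 forms. For 16 genes the DHA effect had the same sign at both times and was larger at 24 h. For MSMO1 the sign was also the same, but the effect was larger at 6 h. For FST, AKAP12 and CFAP44 the sign differed, although for FST and AKAP12 the 6 h effect did not pass the test. On the log2 scale, the effect of these 20 had a median size of 0.158 at 6 h, against 0.607 at 24 h, as genes chosen for this difference, while over all genes the medians were 0.0549 and 0.0611. Of these genes, 8 were also called at 6 h, where 82 of all genes were (0.681%), and 19 were called at 24 h, where 328 were (2.72%). CFAP44 was the exception at 24 h.

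**Figure D1:**
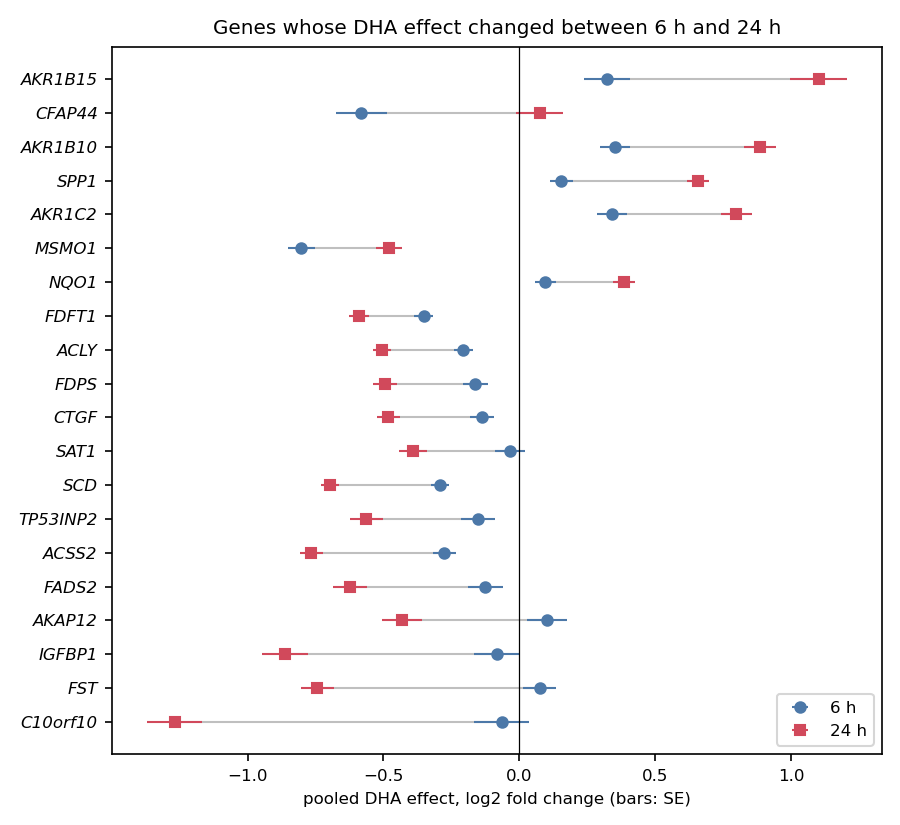
Pooled DHA effect (log2 fold change, x axis) at 6 h (circles) and 24 h (squares) for the 20 genes called for the change with time, with bars of 1 SE, each from 9 samples with and 9 without DHA. The squares lie farther from 0 than the circles for all genes except MSMO1 and CFAP44.

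The calls rested on the replicate block, a term for the replicate number within each time. Without the block no gene was called, and 368 genes had an unadjusted p under 0.05 in edgeR. The lowest adjusted p in edgeR among the 20 genes was 0.0927 (AKR1B15). The direction of all 20 was kept, which the use of the same samples in a balanced design largely fixes. It is no further support. Without DHA + PRO 6 h replicate 1, 49 genes were called, 26 above 0 and 23 below 0, and these held all 20.

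As a second look, each of the 9 samples with DHA was compared with the sample of the same replicate number without DHA, giving 9 log2 CPM differences at each time. The 9 differences at 24 h and the 9 at 6 h did not overlap for 13 of all 12046 genes (0.108%), and 11 of these were among the 20. Exact two-sided permutation p-values of the 20 genes ran from 4.1e-05, the smallest that 9 against 9 can give, to 0.00128. The 20 genes were chosen on the same difference in the same libraries, so these values and the count of 11 describe them and are no further support. The 9 differences also come from only 3 replicate numbers.

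**Figure D2:**
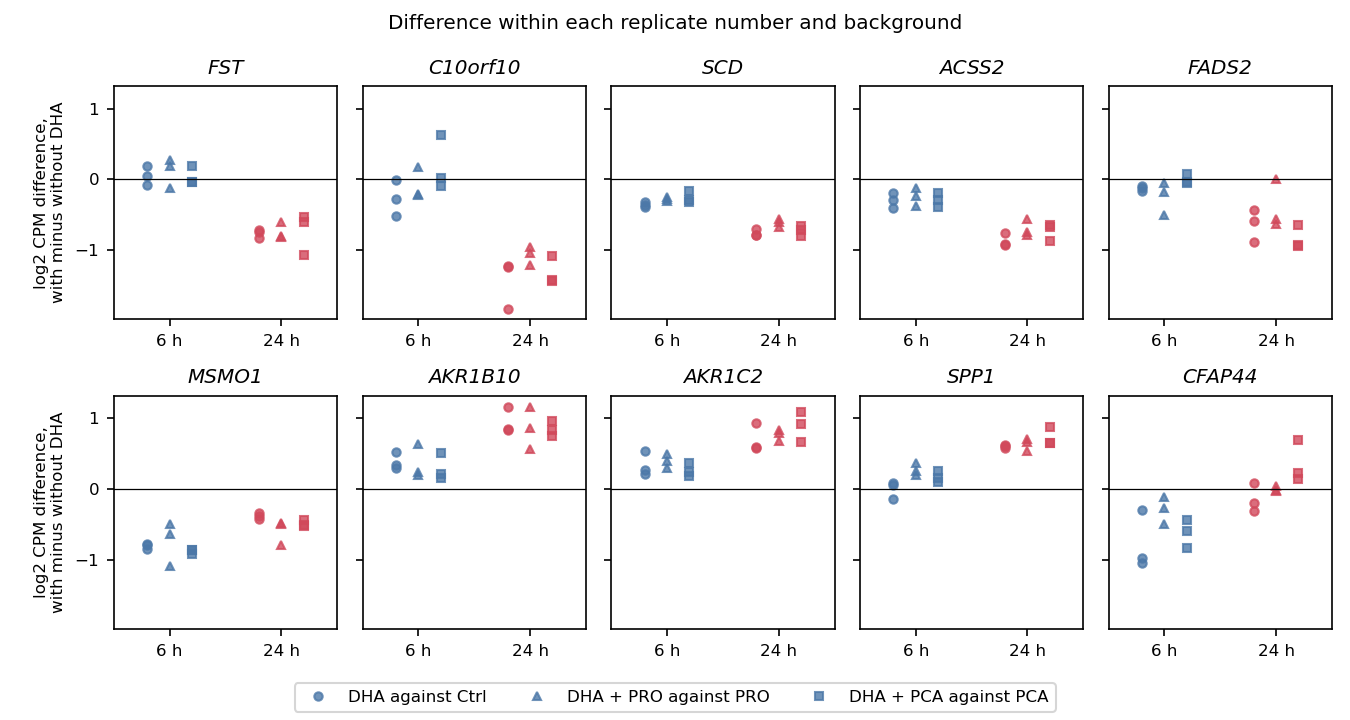
Log2 CPM with DHA minus without DHA (y axis) for 10 of the called genes, at 6 h and at 24 h (x axis), with 1 point for each replicate and background (circles against Ctrl, triangles against PRO, squares against PCA). For FST the 6 h points lie between -0.13 and 0.28 and the 24 h points between -1.06 and -0.53, while the MSMO1 points move up at 24 h.

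Fatty acid synthesis starts from cytosolic acetyl-CoA, and both enzymes that supply it, ACLY from citrate and ACSS2 from acetate, were among the called genes. ACSS2 (chr20:33462766-33515769 on hg19, the build of all gene coordinates here) had a median of 109 CPM without DHA and 84.8 with DHA at 6 h (ranges 86.7 to 141 and 77.6 to 123, n = 9 each). At 24 h the medians were 260 without DHA and 151 with it, with ranges of 241 to 288 and 144 to 167. The sets overlapped at 6 h and were apart at 24 h. The ACSS2 effect deepened from -0.28 (SE 0.0431) to -0.77 (SE 0.0415), a change of -0.49 (SE 0.0597, adjusted p in edgeR 3.57e-06).

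ACLY (chr17:40023170-40075275) had medians of 426 CPM without DHA and 369 with it at 6 h, and of 594 and 410 at 24 h. At 24 h its samples with DHA (401 to 449) lay below all those without (556 to 617), while the 6 h ranges overlapped. The effect went from -0.21 to -0.50, a change of -0.30 (SE 0.0481, adjusted p in edgeR 0.000696).

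SCD, which introduces the first double bond into saturated fatty acids, and FADS2, the desaturase at the entry to polyunsaturated fatty acid synthesis, followed the same course. SCD (chr10:102106772-102124588) had medians of 2133 CPM without DHA (1900 to 2636) and 1727 with it (1489 to 2354) at 6 h. At 24 h they were 4031 (3794 to 4307) and 2516 (2248 to 2616), so that the sets were apart at 24 h and not at 6 h. The SCD effect changed by -0.40 (SE 0.0466), from -0.29 to -0.70. FADS2 (chr11:61583675-61634826) had medians of 85.6 CPM without DHA and 83 with it at 6 h, and of 216 and 137 at 24 h. Its effect went from -0.13 (SE 0.0643), which did not pass the test, to -0.62 (SE 0.0619). Its 24 h samples with DHA (116 to 147.7 CPM) met those without (147.2 to 223) at the edge, and replicate 1 of DHA + PRO differed from replicate 1 of PRO by only 0.0045.

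Of 7 fatty acid synthesis genes tested, 2 changed with time (ACLY and ACSS2), and of 10 desaturases and elongases 2 did (SCD and FADS2), all downward, where 0.108% of all genes were called below 0. FASN, the fatty acid synthase, went from -0.26 (SE 0.0729) to -0.66 (SE 0.0729) with an adjusted p in edgeR of 0.147 for the change, and was called without DHA + PRO 6 h replicate 1 (-0.44, SE 0.0957). The elongase ELOVL6 (change -0.30) and the delta-5 desaturase FADS1 (change -0.23) had unadjusted p-values in edgeR of 0.000239 and 0.000279 and did not pass the adjusted threshold. For ACACA, which makes malonyl-CoA, the change was -0.10 with a 95% interval of -0.23 to 0.04. The median change was -0.10 over the first list and -0.18 over the second, against -0.00117 over all genes.

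Most genes of cholesterol synthesis were repressed at both times, and their changes with time lay on both sides of 0. In the mevalonate pathway, 7 of 9 genes tested were repressed at 6 h and 7 at 24 h, where 0.465% and 1.83% of all genes were called below 0, and the median effect was -0.49 at both times. From squalene to cholesterol, 9 of 12 were repressed at 6 h and 12 of 12 at 24 h, with medians of -0.35 and -0.42. For the change with time, an unadjusted p under 0.05 in edgeR was reached by 2 mevalonate genes below 0 and 1 above, and by 6 genes from squalene to cholesterol below 0 and 2 above, against 3.64% of all genes below 0 and 2.87% above. The median change was 0.07 in the first list and -0.10 in the second.

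For HMGCS1 and CYP51A1 the change did not pass the test. HMGCS1, which forms HMG-CoA, had medians of 357 CPM without DHA and 203 with it at 6 h, and of 841 and 538 at 24 h. Its sets did not overlap at either time, and its effect was -0.81 (SE 0.062) at 6 h and -0.72 (SE 0.0605) at 24 h. The change was 0.08 with a 95% interval of -0.09 to 0.26. CYP51A1, a sterol demethylase, held -0.47 and -0.48, with an interval of -0.14 to 0.12.

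MSMO1 (chr4:166248818-166264314), which removes methyl groups from sterols in the steps after CYP51A1, was called for the change with time. It had medians of 223 CPM without DHA (197 to 266) and 125 with it (109 to 171) at 6 h, and of 386 (371 to 446) and 278 (251 to 355) at 24 h. The sets were apart at both times, and the distance shrank from -0.80 (SE 0.0484) to -0.48 (SE 0.0469). The change of 0.32 (SE 0.0672) had an adjusted p in edgeR of 0.0233. Whether it differed from the changes of HMGCS1 and CYP51A1 was not tested. The squalene epoxidase SQLE (0.15), GGPS1 (0.24) and the cholesterol carrier STARD4 (0.23) also had values above 0 with an unadjusted p under 0.05 in edgeR, and none of them was called.

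FDPS and FDFT1, which make farnesyl diphosphate and squalene, moved the other way. FDPS (chr1:155278539-155290457) had medians of 197 CPM without DHA and 173 with it at 6 h, and of 335 (309 to 370) and 241 (213 to 266) at 24 h. The 24 h sets were apart, the 6 h sets were not, and the effect changed by -0.33 (SE 0.0634). FDFT1 had medians of 451 CPM without DHA and 352 with it at 6 h, and of 939 (841 to 1015) and 620 (586 to 680) at 24 h, again apart at 24 h. It changed by -0.24 (SE 0.0503) from -0.35 to -0.59, with the smallest change among the 20 genes and an adjusted p in edgeR of 0.0245.

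The regulators themselves did not pass. SREBF1, which encodes SREBP-1, was called as repressed at both times, with -0.63 (SE 0.0785) at 6 h and -0.68 (SE 0.0761) at 24 h, and the interval of its change ran from -0.27 to 0.17. SREBF2 was at -0.15 and -0.23, and only the latter was called.

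**Figure D3:**
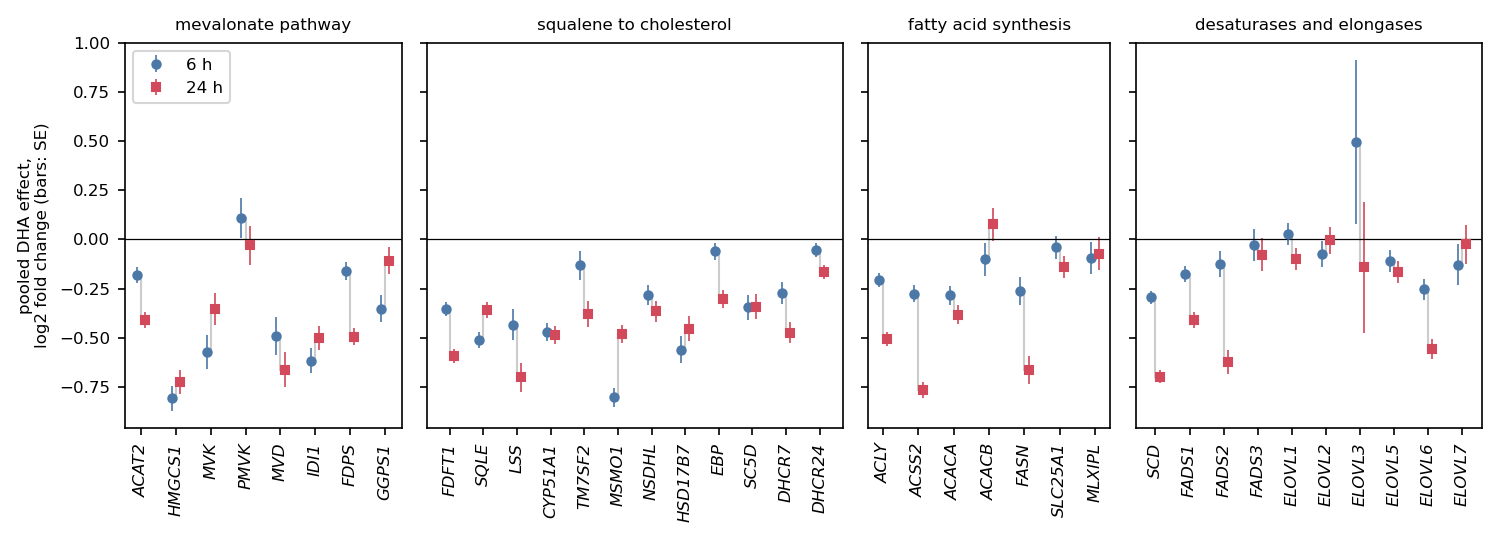
Pooled DHA effect (log2 fold change, y axis, bars of 1 SE) at 6 h (circles) and 24 h (squares) for genes tested in 4 lipid synthesis lists, in the order of each list. The changes of HMGCS1 and CYP51A1 were not called, MSMO1 moves toward 0 and ACLY, ACSS2, SCD and FADS2 move away from it.

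Promoters of 16 of the 20 genes were found in RefSeq (GRCh38.p14), and IGFBP1, AKR1B10, AKR1B15 and FDFT1 were not matched. Windows from 250 bases before to 50 after the start were searched on both strands for 6 motifs. Shown are the 250 bases before the start of SCD (chr10:100346983-100347232, plus strand), FDPS (chr1:155308616-155308865, plus strand), MSMO1 (chr4:165327419-165327668, plus strand) and C10orf10 (chr10:44978810-44979059, minus strand). The first 2 belong to genes whose repression deepened, MSMO1 to a gene whose repression shrank and C10orf10 to the one with the largest change among the 20. Capitals mark every match to the 6 motifs.
SCD: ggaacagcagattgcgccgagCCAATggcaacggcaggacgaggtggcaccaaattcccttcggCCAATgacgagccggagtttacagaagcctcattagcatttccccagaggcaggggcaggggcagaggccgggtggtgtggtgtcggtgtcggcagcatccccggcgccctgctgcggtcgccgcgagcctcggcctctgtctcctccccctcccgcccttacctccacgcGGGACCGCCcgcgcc
FDPS: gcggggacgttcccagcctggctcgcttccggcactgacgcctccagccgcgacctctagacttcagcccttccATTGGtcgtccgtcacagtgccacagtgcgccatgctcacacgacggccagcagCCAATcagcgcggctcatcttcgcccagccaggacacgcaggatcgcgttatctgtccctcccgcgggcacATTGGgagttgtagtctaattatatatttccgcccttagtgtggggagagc
MSMO1: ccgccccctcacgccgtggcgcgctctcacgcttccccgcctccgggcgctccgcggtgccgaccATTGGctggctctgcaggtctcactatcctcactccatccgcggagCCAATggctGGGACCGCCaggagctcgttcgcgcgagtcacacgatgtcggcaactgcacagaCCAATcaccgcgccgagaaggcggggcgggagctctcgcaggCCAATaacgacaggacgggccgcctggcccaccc
C10orf10: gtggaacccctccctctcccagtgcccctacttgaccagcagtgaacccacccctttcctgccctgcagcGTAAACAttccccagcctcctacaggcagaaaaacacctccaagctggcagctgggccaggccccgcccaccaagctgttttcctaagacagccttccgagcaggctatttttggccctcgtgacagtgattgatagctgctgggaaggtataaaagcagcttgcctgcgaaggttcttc
The CCAAT box (CCAAT), bound by NF-Y, occurred in 10 of the 16 windows and in 34.6% of 35116 RefSeq windows of the same length. Those RefSeq windows were not limited to the genes tested here, while each called gene gave 1 window. The CCAAT box was found in genes of both directions, 4 times in MSMO1, 3 times in FDPS and 2 times in SCD. The SREBP site core searched (TCACNCCAC) and the antioxidant response element (TGACNNNGC) occurred in 0 of the 16 windows, against 1.13% and 13.3% of all. Variants of these patterns and sites outside the windows were not searched, so these counts do not show that such sites are absent. The FOXO core (GTAAACA) occurred in 1, C10orf10, at -180, against 3.42% of all. The E-box (CACGTG) occurred in AKAP12 (7.26% of all) and the NF-kB site (GGGANNNCC) in SCD and MSMO1 (22.9% of all).

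The largest change among the 20 genes was that of C10orf10 (chr10:45471709-45474330, also known as DEPP1), a gene induced by FOXO factors in fasting. Its medians were 32.3 CPM without DHA and 31.5 with it at 6 h, and 55.7 and 27 at 24 h. The ranges overlapped at both times (30 to 92.3 without DHA and 15.1 to 38.5 with it at 24 h). Within replicate numbers, all 9 differences at 24 h (-1.82 to -0.96) lay below all 9 at 6 h (-0.51 to 0.63). The effect went from -0.07 (SE 0.1) to -1.27 (SE 0.1), a change of -1.20 (SE 0.142, adjusted p in edgeR 2.1e-06).

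IGFBP1, the insulin-repressed binding protein of insulin-like growth factors and another FOXO target, showed the same course. Its medians were 288 CPM without DHA and 262 with it at 6 h, and 464 and 274 at 24 h. The ranges overlapped at both times (297 to 635 without DHA and 154 to 341 with it at 24 h). The effect changed by -0.78 (SE 0.12), from -0.08 to -0.86, and the 9 differences of the 2 times did not overlap. In the list of gluconeogenesis and glycogen genes, 1 of 10 was called (IGFBP1), where 0.108% of all genes were called below 0. For G6PC and PCK1, which encode gluconeogenic enzymes, the changes were -0.44 (SE 0.176) and -0.05 (SE 0.136), neither called.

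FST encodes follistatin, a secreted antagonist of activins that the liver releases. Without DHA its median was 49.7 CPM at 6 h and 70.2 at 24 h, and with DHA it was 47.4 and 35. The effect was 0.07 (SE 0.06) at 6 h and -0.74 (SE 0.0613) at 24 h. The sets overlapped at both times (38.8 to 74.2 without DHA and 25.5 to 47 with it at 24 h). The change of -0.82 (SE 0.0858) had the lowest p of all genes.

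CTGF (CCN2), a matricellular growth factor, TP53INP2, which takes part in autophagy, SAT1, which acetylates polyamines, and the kinase anchor AKAP12 were also repressed by DHA at 24 h and did not pass the test at 6 h. For CTGF the medians were 158 and 136 CPM at 6 h and 454 and 325 at 24 h, without and with DHA, and the change was -0.35 (SE 0.061). SAT1 stood at 120 and 113 CPM at 6 h and at 266 (249 to 291) and 208 (181 to 221) at 24 h, with separate sets at 24 h. The change was -0.36 (SE 0.0752).

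TP53INP2 had medians of 37.7 CPM without DHA and 35.7 with it at 6 h, and of 58 (42 to 81.6) and 42 (32.6 to 44.8) at 24 h, with a change of -0.41 (SE 0.0878). AKAP12 had medians of 56.1 and 56.3 CPM at 6 h and of 71 (49.6 to 92.7) and 53.2 (47.5 to 65.2) at 24 h, with a change of -0.53 (SE 0.104). For CTGF, TP53INP2 and AKAP12 the sets with and without DHA overlapped at both times.

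Of 11 aldo-keto reductases tested, 3 were more strongly induced by DHA at 24 h, where 0.0581% of all genes were called above 0 for the change. AKR1B10 (chr7:134212344-134226166), which reduces retinal and lipid aldehydes, had medians of 128 CPM without DHA (103 to 136) and 154 with it (143 to 184) at 6 h. At 24 h they were 50.8 (37.1 to 75.5) and 92.8 (82.6 to 112). The sets were apart at both times, and the effect rose from 0.35 (SE 0.055) to 0.88 (SE 0.0596), a change of 0.53 (SE 0.081, adjusted p in edgeR 0.000314). AKR1C2, which reduces steroids and aldehydes, stood at 858 and 1072 CPM at 6 h and at 168 and 271 at 24 h. Its sets were apart at 6 h (755 to 899 without DHA and 977 to 1295 with it). At 24 h they overlapped (122 to 254 and 224 to 408.5). The AKR1C2 effect changed by 0.46 (SE 0.0789).

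AKR1B15 changed by 0.78 (SE 0.136), at a low level of 5 CPM without DHA and 11.4 with it at 24 h. It lies next to AKR1B10 on chromosome 7 and resembles it closely, and AKR1C2 is nearly identical to AKR1C1, so reads may have been shared within these pairs. AKR1C1 itself changed by 0.33 (SE 0.0854, adjusted p in edgeR 0.156). Of the 11 aldo-keto reductases, 6 were induced at 24 h and 0 repressed, where 0.888% of all genes were called above 0.

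NQO1, the quinone reductase, was the 1 gene called among 20 of the NRF2 antioxidant response, where 0.0581% of all genes were called above 0. It had medians of 713 CPM without DHA and 772 with it at 6 h, with overlapping ranges, and 498 (449 to 591) and 645 (607 to 738) at 24 h, where the sets were apart. Its change was 0.29 (SE 0.055, adjusted p in edgeR 0.00762). Other members were called as induced at both times. SRXN1, a sulfiredoxin, was at 0.32 and 0.30, TXNRD1, a thioredoxin reductase, at 0.22 and 0.32, GCLC, a subunit of the glutamate-cysteine ligase, at 0.25 and 0.31 and OSGIN1 at 0.65 and 0.71. For SRXN1 the interval of the change ran from -0.16 to 0.12. In all, 5 of the 20 were called at 6 h (0.681% of all genes) and 11 at 24 h, all of the latter above 0 (0.888% of all genes).

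SPP1, which encodes the secreted phosphoprotein osteopontin, had medians of 211 CPM without DHA and 222 with it at 6 h, and of 227 (201 to 335) and 401 (306 to 489) at 24 h. The sets overlapped at both times, but the 9 within-replicate differences did not overlap between the times. The effect rose from 0.15 (SE 0.042) to 0.66 (SE 0.0419), a change of 0.50 (SE 0.0593).

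CFAP44, a protein of the ciliary axoneme, was the 1 gene of the 20 that was repressed at 6 h and not at 24 h. Its medians were 12.8 CPM without DHA (9.83 to 15.8) and 8.03 with it (6.77 to 9.73) at 6 h, and 16.5 and 17.1 at 24 h. The effect went from -0.58 (SE 0.0931) to 0.07 (SE 0.0849), and the change was 0.65 (SE 0.126, adjusted p in edgeR 0.00769).

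The 20 genes had 1 direction in all 3 backgrounds, which their choice on the mean of the same 3 changes largely fixes. For FST the change was -0.83 (SE 0.147) without a further compound, -0.83 (SE 0.147) with PRO and -0.80 (SE 0.151) with PCA. SCD changed by -0.40, -0.34 and -0.47, each with an SE of 0.0806. Of the 20 genes, FADS2 had the lowest p in the F test of equal changes given next. Its changes were -0.51 against Ctrl, -0.16 against PRO and -0.82 against PCA (SE 0.154 to 0.155). This F test called 0 genes in edgeR, with 1124 genes at an unadjusted p under 0.05 and a lowest adjusted p of 0.526. The lowest unadjusted p in edgeR among the 20 genes was 0.0168, for FADS2.

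Taken alone, the backgrounds gave few calls, and each called gene was among the 20. DHA against Ctrl gave 3 (0.0249%, SPP1, ACSS2 and FST), DHA + PRO against PRO 1 (0.0083%, FST) and DHA + PCA against PCA 5 (0.0415%, SPP1, FADS2, SCD, FST and C10orf10). Without the replicate block each of these counts was 0. A gene called in 1 background and not in another is not shown to differ between them.

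**Figure D4:**
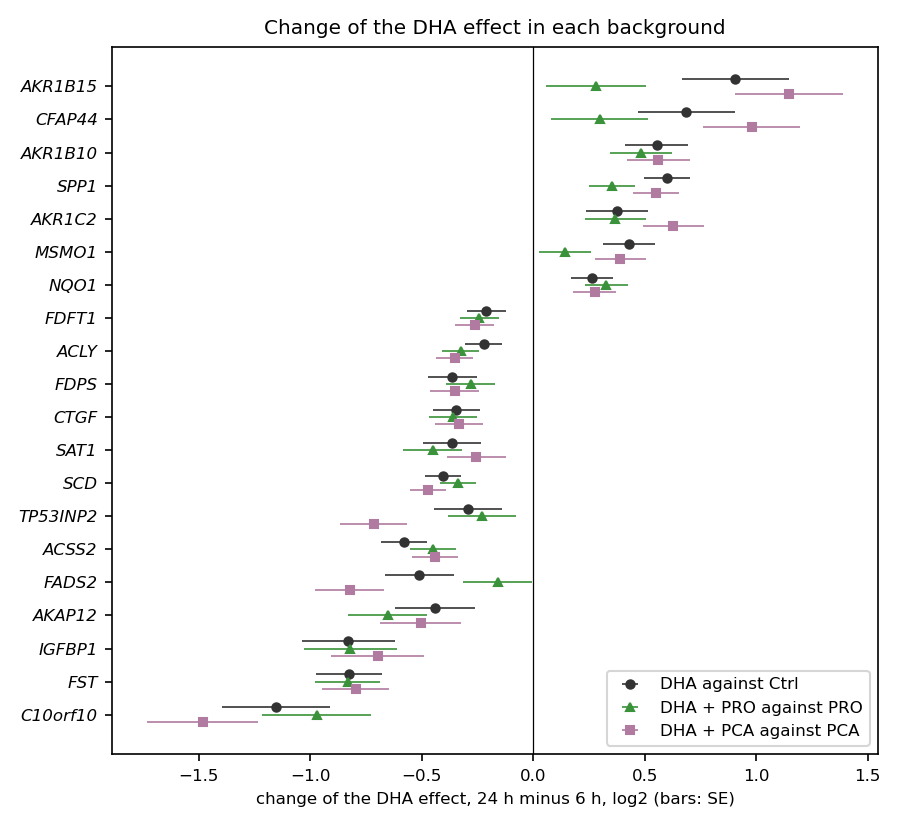
Change of the DHA effect from 6 h to 24 h (log2, x axis, bars of 1 SE) for the 20 called genes, separately for DHA against Ctrl (circles), DHA + PRO against PRO (triangles) and DHA + PCA against PCA (squares). All 3 symbols lie on the same side of 0 for each gene, and those of FST nearly coincide.

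The levels themselves also changed between 6 h and 24 h of culture. All 13 genes with a change below 0 rose from 6 h to 24 h in cells without DHA. SCD rose by 0.87 without DHA and by 0.46 with it, ACSS2 by 1.23 and 0.74, and CTGF by 1.59 and 1.24. For C10orf10 the values were 0.93 and -0.28, for IGFBP1 0.72 and -0.06 and for FST 0.37 and -0.45. The 3 called aldo-keto reductases fell with time, with changes of -2.31 without DHA and -1.85 with it for AKR1C2 and of -1.29 and -0.76 for AKR1B10. AKR1B10 was thus more strongly induced at 24 h although its level with DHA was lower than at 6 h. For MSMO1 the rise was 0.82 without DHA and 1.14 with it.

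These time changes share the samples without DHA with the change of the DHA effect. Values that share no library are the time change in Ctrl and the change of the DHA effect in the PRO and PCA backgrounds. They had opposite signs for 18 of the 20 genes (90%), for 51% of all genes and for 61.2% of the 340 genes called on the averaged effect described below. The 2 genes with the same sign were MSMO1 and CFAP44. The 20 genes were chosen on a contrast that holds all of these libraries, and this count is a description.

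**Figure D5:**
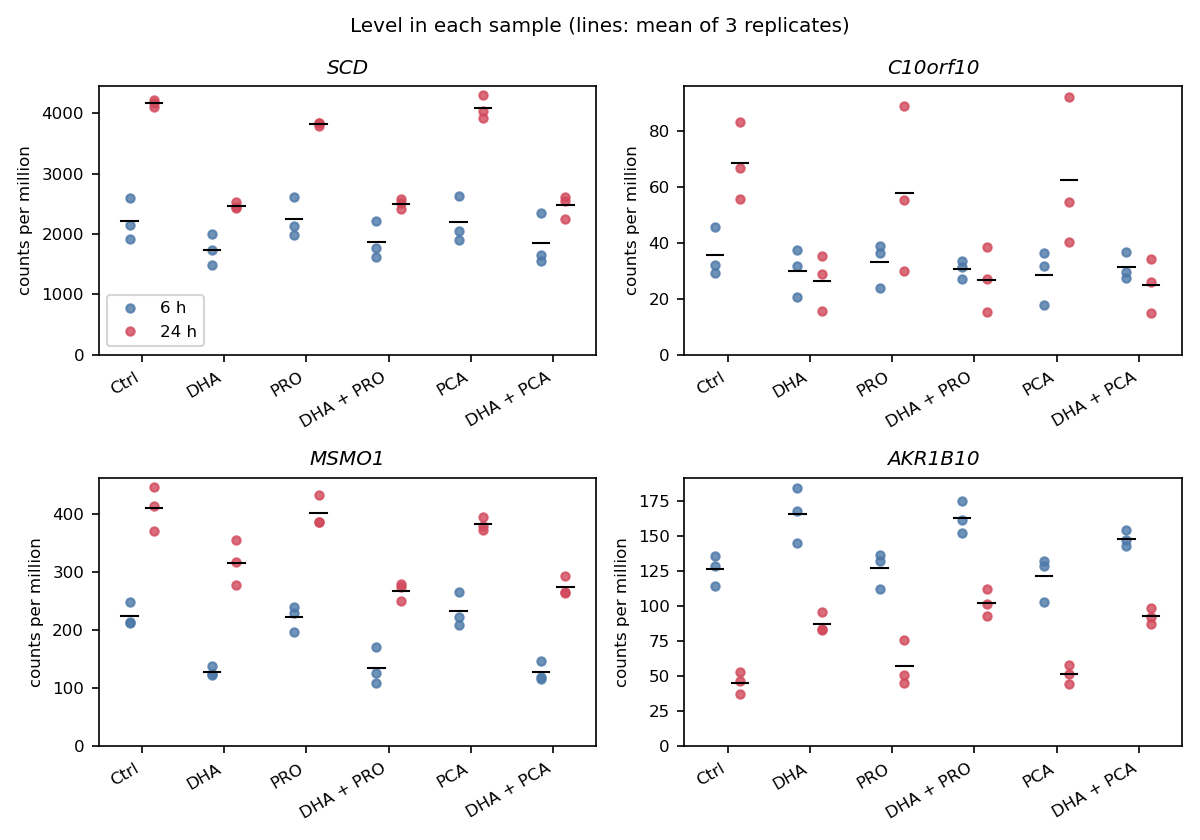
CPM (y axis, from 0) of SCD, C10orf10, MSMO1 and AKR1B10 in each of the 36 samples by treatment (x axis), at 6 h and 24 h, with lines at the mean of 3 replicates. SCD with DHA at 24 h stays between 2248 and 2616 while samples without DHA reach 3794 to 4307, and AKR1B10 lies lower at 24 h than at 6 h in every treatment.

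Whether DHA effects in general grew with time was examined in genes chosen on an effect averaged over both times, a contrast that does not favour 6 h or 24 h. This averaged effect called 340 genes (2.82%), 122 induced and 218 repressed. The effect was larger at 24 h for 257 of them (75.6%), against 52.8% of all genes, and its median size was 0.166 at 6 h and 0.247 at 24 h. The share was 74.6% among induced and 76.1% among repressed genes. The call for the change itself was passed by 19 of the 340, and by 0.166% of all genes.

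This share rested on 1 library. Without DHA + PRO 6 h replicate 1, 729 genes were called on the averaged effect and 51.9% of them had the larger effect at 24 h, against 44.2% of all genes, with medians of 0.176 at 6 h and 0.18 at 24 h. The number of genes called at 6 h went from 82 to 309 and at 24 h from 328 to 413. All 20 genes remained called, with changes of -0.405 for SCD and -1.24 for C10orf10.

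The ATF4 response serves amino acid supply under stress. Of 21 genes of this response, 8 had a change above 0 at an unadjusted p under 0.05 in edgeR (2.87% of all genes). In all, 20 of the 21 lay above 0 and 1 below, where 6062 of all 12046 genes lay below 0. The median effect went from 0.0025 at 6 h to 0.20 at 24 h, and 8 were called as induced at 24 h (0.888% of all genes). DDIT4, an inhibitor of mTORC1 signalling, had medians of 57.1 and 58.2 CPM at 6 h and 103 and 142 at 24 h, without and with DHA. Its change was 0.58 (SE 0.15, adjusted p in edgeR 0.153), and ASNS, the asparagine synthetase, changed by 0.59 (SE 0.19, adjusted p in edgeR 0.365). Without DHA + PRO 6 h replicate 1 the list had 1 called gene (PSAT1, a serine synthesis enzyme, at 0.34) and a median change of 0.13. In that fit 49 of 12156 genes were called.

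Among 16 immediate early genes, which respond quickly to growth signals, 14 lay below 0, where 6062 of all 12046 genes did. For 6 of them the unadjusted p in edgeR was under 0.05 (3.64% of all genes). CTGF was the 1 called (0.108% of all genes). EGR1 had a change of -0.43 (SE 0.181) and CYR61 of -0.33 (SE 0.149), and both were among the 4 repressed at 24 h (1.83% of all genes). In the list of NF-kB targets and chemokines, 7 of 8 lay below 0, 0 were called and the median was -0.23, with ICAM1 at -0.24 and TNFAIP3 at -0.21. Of 16 ER chaperones 12 lay below 0, 0 were called and the median was -0.08.

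In the metallothionein list, MT2A and MT1G were induced at both times, MT2A by 0.60 and 0.44 and MT1G by 0.58 and 1.09, with 6 of 9 called at 6 h (0.681% of all genes) and 4 at 24 h, all above 0 (0.888% of all genes). None of the 9 was called for the change in edgeR, and 2 had an unadjusted p under 0.05, both above 0. CPT1A, the gate of mitochondrial fatty acid oxidation, was at 0.40 and 0.17 with an interval of -0.53 to 0.07, and 0 of 22 genes of PPAR alpha and fatty acid oxidation were called. No call for the change was made either among 38 DNA replication, 28 mitosis, 33 respiratory chain, 27 proteasome and 42 cytosolic ribosomal protein genes, whose median changes ran from -0.01 to 0.06.

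The calls near the threshold give its scale. Just inside it were FDFT1 and TP53INP2 (adjusted p in edgeR 0.0245 and 0.0262). Just outside were the mitochondrial carrier UCP2 (-0.45, SE 0.103, adjusted p in edgeR 0.0595) and the glutathione peroxidase GPX2 (0.28, SE 0.0636, adjusted p in edgeR 0.0651).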

How the data were processed

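Libraries were prepared from enriched mRNA and sequenced by the authors, who aligned reads to hg19 (GRCh37) with STAR and counted them per RefSeq gene with iRNA-seq. The authors deposited unscaled read counts on 18932 genes, together with gene coordinates and counted lengths. Versions and the use of strand in counting are not given in the sources used here, so overlapping antisense genes cannot be told apart.

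Counts were tested with edgeR 4.0.16 in R 4.3.3, using TMM scaling, filterByExpr on the 12 groups, and quasi-likelihood F tests. The model held 12 group means and the replicate number within each time, and p-values were adjusted by the Benjamini-Hochberg method over 12046 genes. CPM used TMM-scaled library sizes, log2 CPM a prior count of 0.5, and an SE is the fold change divided by the root of F. RPKM used the deposited counted lengths. The 9 within-replicate differences per time were compared by exact two-sided permutation. Replicates were separate cultures, and no pair of libraries was a duplicate (lowest chi-square per degree of freedom 1.89 over 630 pairs).

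Named were all genes called, the 10 with the smallest p for the averaged effect, 13 lipid genes fixed by name and the lowest p of each list. Other list members were named after their values were seen, and some genes are not reported here. The comparison, lists and markers were chosen with earlier results of these data known. Alternatives covered the block, scaling, filters, thinning of the deep library, a GC offset, DESeq2 1.42.0 and leaving out samples. The script was tested on simulated data.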

Additional observations from a re-analysis of the deposited data

Results flagged for a closer look

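The DHA effect differed between the 2 time points for 20 genes, by edgeR's test of the difference itself (the interaction of DHA and time). Values are the pooled DHA effect at 24 h minus that at 6 h on the log2 scale. Among the 20, the largest changes below 0 were those of C10orf10 (-1.20), FST (-0.82) and IGFBP1 (-0.78). Lipid synthesis genes with deeper repression at 24 h were ACSS2 (-0.49), SCD (-0.40), FADS2 (-0.50), ACLY (-0.30), FDPS (-0.33) and FDFT1 (-0.24). Other genes with values below 0 were CTGF (-0.35), SAT1 (-0.36), TP53INP2 (-0.41) and AKAP12 (-0.53). Genes of aldehyde and quinone reduction had values above 0, namely AKR1B15 (0.78), AKR1B10 (0.53), AKR1C2 (0.46) and NQO1 (0.29). The remaining genes above 0 were SPP1 (0.50), CFAP44 (0.65) and MSMO1 (0.32).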

How the results depend on the processing

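The count of 20 genes called for the change with time rested on the replicate block. The fit without the replicate block called 0 genes, a block shared by both times 8 and a term for the library series 3. All genes so called were among the 20. The series was inferred from an earlier and a later range of library numbers in the sample names, which do not name a batch. All of replicate 3 fell in the later range, and so did DHA + PRO 6 h replicate 2, but not PRO 6 h replicate 2. The check of the numbers was mixed: residuals of same-numbered libraries correlated by 0.204 on average at 6 h (-0.0881 to 0.388) and 0.138 at 24 h (-0.156 to 0.306), and 16 and 17 of 18 libraries correlated best with their own number. Another scaling, another CPM limit or thinning the deep library gave 20 again. No filter gave 37, a GC-content offset with the replicate block 47 and the DESeq2 Wald test 34, each holding all 20. Leaving out samples gave 8 to 49. Without replicate 1, 2 and 3 the counts were 28, 10 and 8, of which only 11, 9 and 8 were among the 20. Leaving out 1 library lost only FDFT1, SAT1, TP53INP2 or MSMO1 from the 20. The cause of these differences was not tested.

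The averaged effect called 340 genes, and 123 without the block, 213 with a shared block, 167 with the library series, 652 with the GC offset and 116 to 729 on leaving out samples. DHA against Ctrl (3 genes) gave 0, 0 and 0 under the 3 block alternatives, 6 without a filter, 5 with DESeq2 and 0 to 5 on leaving out samples. DHA + PRO against PRO (1 gene) gave 0, 0 and 0, then 4, 6 and, with the GC offset, 2, and 0 to 327 on leaving out samples, the highest without replicate 2. DHA + PCA against PCA (5 genes) gave 0, 0 and 0, then 12, 12 and 0 to 7. Unequal changes between backgrounds were called for 34 genes without a filter. The share of genes with the larger effect at 24 h (75.6%) was 51.9% without DHA + PRO 6 h replicate 1, 78.6% without DHA + PRO 24 h replicate 2 and 73.2% without the block, alternatives chosen after seeing the data.

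All 20 genes kept their direction in each alternative that used all samples. These alternatives held the libraries and the contrast on which the genes were chosen, so the kept direction is no further support. On leaving out samples the sign turned for genes not called, with ranges of -0.0966 to 0.107 for CYP51A1, -0.0687 to 0.193 for HMGCS1, -0.0449 to 0.305 for IDI1, -0.183 to 0.0509 for SREBF1 and -0.108 to 0.0119 for HSPA8.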
